A study of Homo sapiens with 9 samples.

Results

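The TMEM transcripts encode proteins whose gene symbol is TMEM followed by a number, a provisional name given to proteins predicted to cross a membrane. They were taken by symbol, with earlier results of these data known, from the ribosome profiling tables of Huh7 cells treated with PF8503 or PF846. Of the 9221 transcripts listed in either table, 114 carried such a symbol. The PF8503 table held 113 of them, the PF846 table held 111, and 110 were in both. TMEM241, TMEM99 and TMEM68 were only in the PF8503 table and TMEM189 only in the PF846 table.

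Ribosome profiling reads the pieces of mRNA covered by ribosomes after a nuclease has removed the rest. The counts depend both on the amount of an mRNA and on the ribosomes per copy. No measure of mRNA amount was used here, so these parts cannot be told apart. Huh7, a human hepatocellular carcinoma line, was treated for 1 hr with 1.5 μM PF8503 (PF-06378503), with 1.5 μM PF846 (PF-06446846, which the labels spell PF-067446846) or with 0.5% DMSO as vehicle, and cycloheximide was present from the rinse onwards in all 3 groups. Each group had 3 libraries, 9 in all. The libraries of vehicle came from lanes 1, 1 and 5, those of PF846 from lanes 2, 2 and 6 and those of PF8503 from lanes 4, 4 and 8, so lane and treatment cannot be told apart. The tables give, for each transcript, the authors' mean normalized count over the libraries of a condition. Values of single libraries were not analysed here, so no replicate error or depth per library is given and no test was run for any difference below. The hepatocyte genes ALB, AFP, APOB and TF were all present, with ALB at 148370 and AFP at 212970 normalized counts with vehicle in the PF8503 table. All differences are the log2 ratio of the authors' mean with compound to the authors' mean with vehicle, and the same vehicle libraries enter both tables.

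Membrane proteins are mostly made on ribosomes docked at the endoplasmic reticulum (ER). A hydrophobic stretch emerges from the ribosome exit tunnel, is bound by the signal recognition particle, and is passed to the translocon, which releases it sideways into the membrane. PF846 is known to bind in this exit tunnel and to stall the translation of selected nascent chains, and PF8503 is a related compound. The TMEM proteins share no sequence family or pathway. Among them are ion channels, lipid enzymes and scramblases, assembly factors of the respiratory chain, subunits of the oligosaccharyltransferase and of translocon-linked complexes, and many proteins without an assigned function.

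The start of the coding sequence is shown for the transcripts at the ends of the distributions described below, since ribosomes at these codons hold the chain that fills the exit tunnel. Each line gives the first 40 codons (120 bases, 5′ to 3′, coding strand) of the canonical transcript in GENCODE version 44, with the genome build GRCh38. Capitals mark the codons of the first window of 19 residues with a mean Kyte-Doolittle hydropathy of at least 1.6, where that window begins within the stretch. TMEM38B, TMEM184C, TMEM19 and TMEM128 are at the low end with PF8503 or with both compounds, TMEM62 and TMEM86B are at the high end with both, and TMEM167A is shown because its counted region differed between the tables. TMEM180, also at the high end with both compounds, and TMEM99 were not matched to a coding sequence.
TMEM38B: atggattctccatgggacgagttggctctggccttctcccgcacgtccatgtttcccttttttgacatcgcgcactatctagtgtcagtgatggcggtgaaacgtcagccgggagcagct
TMEM184C: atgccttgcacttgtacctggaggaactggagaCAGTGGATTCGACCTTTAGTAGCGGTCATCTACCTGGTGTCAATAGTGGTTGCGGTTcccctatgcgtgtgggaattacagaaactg
TMEM19: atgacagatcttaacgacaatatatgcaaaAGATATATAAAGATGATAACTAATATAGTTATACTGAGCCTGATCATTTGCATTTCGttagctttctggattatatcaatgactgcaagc
TMEM128: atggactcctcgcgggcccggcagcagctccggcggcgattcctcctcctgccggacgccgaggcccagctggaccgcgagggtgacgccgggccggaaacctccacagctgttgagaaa
TMEM167A: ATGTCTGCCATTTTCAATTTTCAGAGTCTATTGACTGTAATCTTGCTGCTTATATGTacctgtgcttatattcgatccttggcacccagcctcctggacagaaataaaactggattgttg
TMEM62: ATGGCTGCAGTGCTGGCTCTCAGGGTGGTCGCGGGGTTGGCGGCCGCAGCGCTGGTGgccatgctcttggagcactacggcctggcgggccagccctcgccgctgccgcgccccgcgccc
TMEM86B: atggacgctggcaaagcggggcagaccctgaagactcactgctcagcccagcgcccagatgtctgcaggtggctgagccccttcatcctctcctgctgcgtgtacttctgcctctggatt

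The first window began at residue 11 in TMEM19 and at residue 12 in TMEM184C, both near the low end with PF8503, and at residue 1 in TMEM62 and TMEM167A, neither of which was low with PF8503. In TMEM86B it began at residue 45, in TMEM38B at residue 51 and in TMEM128 at residue 78, beyond the stretch shown. Among the sequences shown, early hydrophobic codons were present at both ends of the distribution, at the high end in TMEM62 alone. Of the TMEM transcripts with a PF8503 value and a coding sequence, 44 of 111 (39.6%) had a first window beginning in residues 1 to 30.

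The TMEM transcripts were measured at moderate depth. Their authors' means with vehicle ranged from 48.2 to 2642 normalized counts in the PF8503 table, with a median of 289, against a median of 397 over all transcripts of that table. In the PF846 table they ranged from 50.0 to 2419 with a median of 276, against 382 over all transcripts. Summed, the TMEM transcripts held 0.532% of the vehicle total and 0.550% of the PF8503 total in the PF8503 table. In the PF846 table they held 0.531% of the vehicle total and 0.534% of the PF846 total.

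Levels were compared between genes per length, as the authors' vehicle mean in the PF8503 table per 100 codons of the coding sequence, leaving out 10 codons at each end. This level ranged from 6.36 for TMEM8B to 3735 for TMEM258, with a median of 112 over 111 transcripts. TMEM258, a small subunit of the oligosaccharyltransferase that transfers N-glycans, has 79 residues and was followed by TMEM97, the sigma-2 receptor, at 1694 normalized counts per 100 codons. TMEM109, a membrane protein of the ER and nuclear envelope, stood at 1006 per 100 codons. TMEM123, a cell surface mucin-like protein, stood at 816 per 100 codons and TMEM33, an ER membrane protein, at 736. Without single libraries it was not tested which neighbours in this order differ.

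No TMEM transcript differed from vehicle by as much as 0.5 on the log2 scale with either compound. Of all transcripts measured with PF8503, 1.32% were past this limit, 1.08% lower and 0.24% higher. Of all those measured with PF846, 0.475% were past it, 0.396% lower and 0.0792% higher. At these shares a list of this length would hold few or no such transcripts, so their absence is near the background. With PF8503 the log2 ratios of the TMEM transcripts lay between -0.48 and 0.36, and with PF846 between -0.22 and 0.43. The lowest log2 ratio over all transcripts was -2.65 for PF8503 and -2.03 for PF846.

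**Figure D1:**
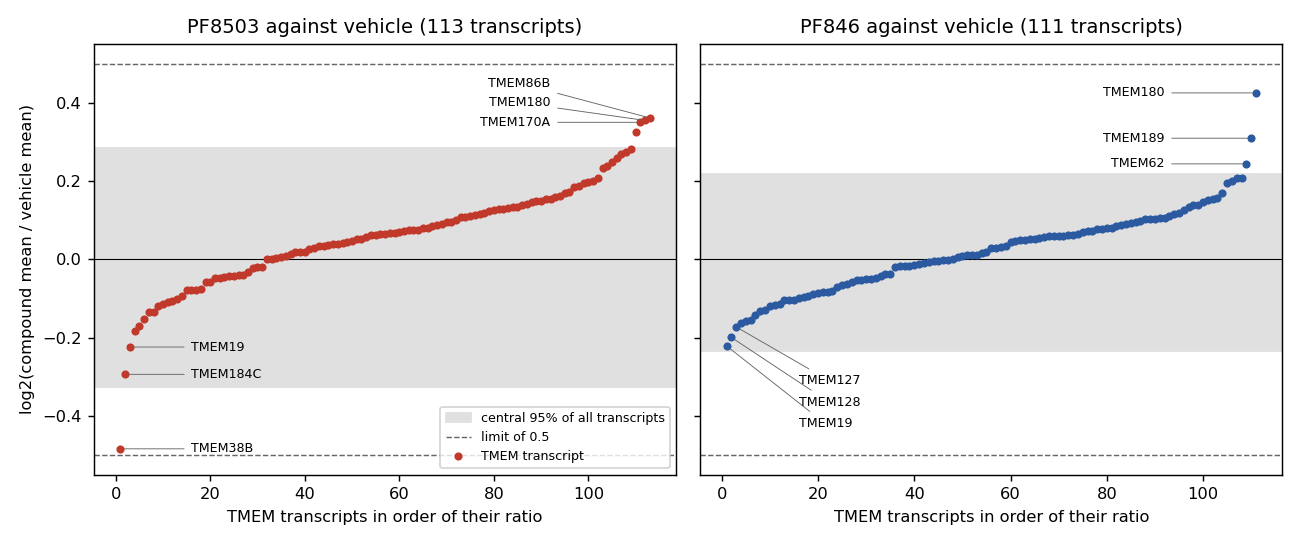
Log2 ratio of the authors' mean with compound to that with vehicle (y axis) for the TMEM transcripts in order of that ratio (x axis), with PF8503 on the left (113 transcripts) and PF846 on the right (111). Points are transcripts, the grey band is the central 95% of all transcripts of the table and dashed lines mark 0.5 in either direction. All points lie within the dashed lines, and TMEM38B with PF8503 lies closest to the lower line at -0.48.

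At the smaller limit of 0.25 on the log2 scale, 2 TMEM transcripts were lower and 8 were higher with PF8503, or 1.77% and 7.08% of 113. The background was 4.23% lower and 3.79% higher. With PF846 none was lower and 2 of 111 were higher, against a background of 2.13% lower and 1.66% higher. The transcripts lower by this limit with PF8503 were TMEM38B and TMEM184C. Those higher were TMEM86B, TMEM180, TMEM170A, TMEM62, TMEM219, TMEM8B, TMEM141 and TMEM160. With PF846 they were TMEM180 and TMEM189. These transcripts were named after their values were seen, where they are not among those at either end.

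The median log2 ratio of the TMEM transcripts was 0.066 with PF8503, against 0.013 over all transcripts of that table, and 82 of 113 (72.6%) were above 0, against 54.7% in the table. With PF846 the median was 0.028 against 0.00086, and 63 of 111 (56.8%) were above 0, against 50.3%. Solute carriers, the transporters named SLC and a number, had a median of 0.052 with PF8503 over 171 transcripts and of 0.010 with PF846 over 163. Of these solute carriers, 66.7% were above 0 with PF8503 and 52.8% with PF846. Other families with a transmembrane name (TMED cargo receptors, tetraspanins, TM9SF proteins and the like) had medians of 0.035 over 38 transcripts and -0.0074 over 37. In these families 60.5% were above 0 with PF8503 and 45.9% with PF846. In this last group the lowest log2 ratio was -2.09 for PF8503 and -1.35 for PF846. Among the solute carriers it was -0.58 and -0.49. Whether these groups differ from the TMEM transcripts was not tested.

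The spread of the log2 ratios narrowed with depth. Among the 12 TMEM transcripts under 100 normalized counts with vehicle in the PF8503 table, the SD across transcripts was 0.154, and among the 15 with at least 1000 it was 0.079. With PF846 these SDs were 0.174 over 15 transcripts and 0.061 over 15. Single TMEM values were set against the central 95% of all transcripts of their class. With PF8503 this range was -0.26 to 0.23 from 300 to 1000 normalized counts, and TMEM38B at -0.48, TMEM160 at 0.26 and TMEM179B at 0.25 lay outside it. From 100 to 300 it was -0.35 to 0.30, with TMEM86B at 0.36 and TMEM62 at 0.33 outside and TMEM184C at -0.29 within. With PF846 it was -0.29 to 0.36 under 100 normalized counts, where TMEM180 at 0.43 lay outside and TMEM19 at -0.22 within. TMEM62 at 0.24 and TMEM127 at -0.17 also lay just outside the ranges of their classes with PF846, and no other TMEM transcript did with either compound. The median was above 0 in each of the 4 classes of depth with PF8503, from 0.12 in the shallowest to 0.035 in the deepest. Over all transcripts it was also above 0 in each class, at 0.034, 0.021, 0.0084 and 0.0069 from the shallowest to the deepest. With PF846 the TMEM medians were 0.063, 0.059, 0.011 and -0.00095 in the same order, against 0.017, -0.0038, -0.0042 and 0.0070 over all transcripts.

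**Figure D2:**
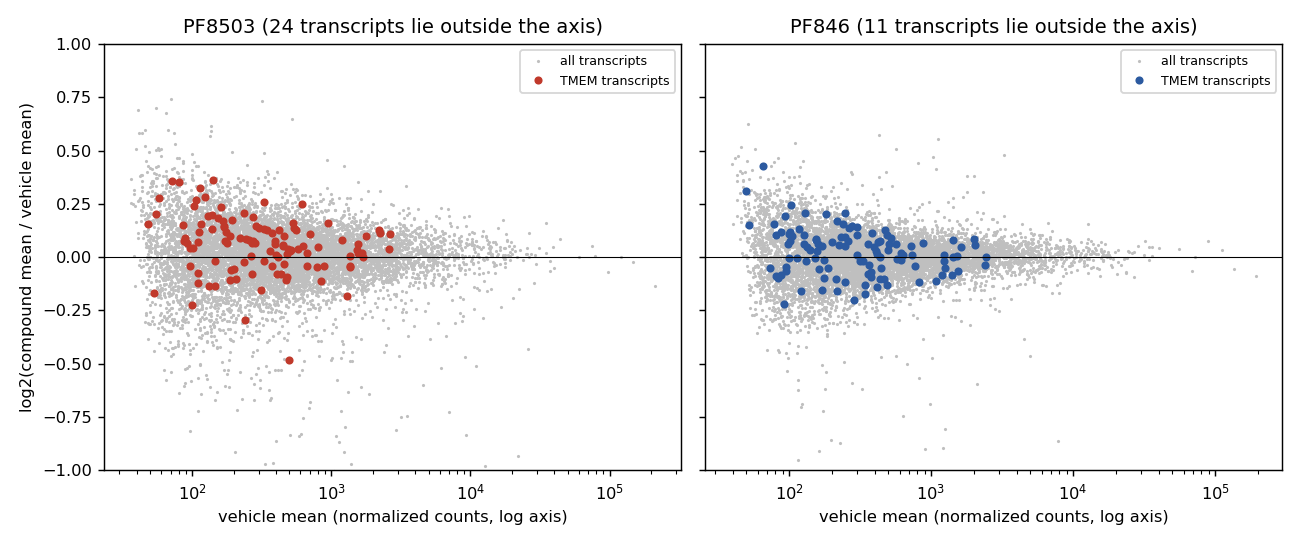
Log2 ratio of compound to vehicle (y axis) against the authors' vehicle mean in normalized counts (x axis, log scale), with PF8503 on the left and PF846 on the right. Grey dots are all transcripts within 1 of 0 on the y axis and coloured points the TMEM transcripts, which spread less at higher means (SD of 0.154 under 100 normalized counts and 0.079 from 1000 with PF8503).

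TMEM38B had the lowest ratio with PF8503. It encodes TRIC-B, a cation channel of the ER membrane that balances charge while calcium is released from the ER. The gene (ENSG00000095209) lies on chromosome 9 from 105694541 to 105776629 on the forward strand, with 6 coding exons and 291 residues. The authors' mean was 498 normalized counts with vehicle and 356 with PF8503, a ratio of 0.715 and a log2 ratio of -0.48. In the PF846 table it was 502 with vehicle and 514 with PF846, a log2 ratio of 0.035. In order of the ratio it was transcript 104 from the low end of 9157 with PF8503 and 5864 of 8839 with PF846.

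The region counted for TMEM38B was not the same for the compounds. Where a Z score of at least 2 marked a position of maximal divergence between the cumulative read profiles with compound and with vehicle, the authors counted only the reads downstream of it. Elsewhere they counted from 10 codons after the start. Since both tables use the same vehicle libraries, an unchanged region gives a fixed ratio between the vehicle means of the tables. This ratio was 1.09 for all but 134 of the 8775 transcripts in both tables (1.53%), and for all but 2 of the 110 TMEM transcripts (1.82%). For TMEM38B the region used with PF8503 held 90.9% of the vehicle reads of the region used with PF846. A region that begins at the point of maximal divergence favours low values by construction, by an amount that the means do not give.

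TMEM167A was the other of these 2 transcripts, with the shorter region in the PF846 table. It encodes a small protein of the Golgi that takes part in secretion, and its gene (ENSG00000174695) spans 83052846 to 83077863 of chromosome 5, reverse strand, and encodes 72 residues. The region used with PF846 held 64.5% of the vehicle reads of the region used with PF8503. Over this shorter region the authors' mean was 95.9 normalized counts with vehicle and 91.8 with PF846, a log2 ratio of -0.063. Over the longer region it was 162 with vehicle and 191 with PF8503, a log2 ratio of 0.23. For both TMEM167A and TMEM38B the lower of the log2 ratios was the one over the shorter region, and the part of the region in either value was not tested.

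TMEM184C, a multi-pass protein of unassigned function, was second lowest with PF8503. Its gene (ENSG00000164168) lies on chromosome 4 from 147617386 to 147672044, with 10 coding exons. The authors' mean was 238 normalized counts with vehicle and 194 with PF8503, a log2 ratio of -0.29, and 218 with vehicle and 196 with PF846, a log2 ratio of -0.16. Its counted region did not differ between the tables. TMEM19 (ENSG00000139291, chromosome 12, 71686082 to 71705047) was lowest with PF846, from 91.9 normalized counts with vehicle to 78.9, and among the 3 lowest with PF8503, from 100.4 to 86.0. Its log2 ratio was -0.22 with each compound. TMEM128, whose gene (ENSG00000132406) lies on chromosome 4 from 4235542 to 4248223, stood at -0.15 with PF8503 and -0.20 with PF846. TMEM64, a member of the family of ER proteins that includes the scramblase TMEM41B, stood at -0.14 and -0.16. The remaining members among the 10 lowest with PF8503 were TMEM248 (-0.18), TMEM241 (-0.17), TMEM164 (-0.13), TMEM186 (-0.12), an assembly factor of complex I, and TMEM57 (-0.11). TMEM241 had a row only in the PF8503 table.

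Among the 10 lowest with PF846 were also TMEM127, an endosomal tumour suppressor that restrains mTORC1, at -0.17, and TMEM175, a lysosomal ion channel, at -0.14. TMEM94, an ER-resident P-type transporter homolog, stood at -0.15, TMEM115, a Golgi protein of retrograde transport, at -0.13, TMEM101 at -0.13 and TMEM87A, a Golgi protein, at -0.12. With PF8503 the log2 ratios of these transcripts were -0.044 for TMEM127, 0.058 for TMEM175, -0.11 for TMEM94, 0.16 for TMEM115, 0.11 for TMEM101 and -0.042 for TMEM87A.

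TMEM86B had the highest ratio with PF8503. It encodes lysoplasmalogenase, which degrades lysoplasmalogens, and its gene (ENSG00000180089) lies on chromosome 19 from 55226638 to 55228784. The authors' mean went from 142 normalized counts with vehicle to 182 with PF8503, a log2 ratio of 0.36, and from 130 to 150 with PF846, a log2 ratio of 0.21. TMEM180 stood at 0.35 with PF8503, from 71.1 normalized counts to 90.9, and at 0.43 with PF846, from 65.1 to 87.4. TMEM62 (ENSG00000137842, chromosome 15, 43123279 to 43185144) stood at 0.33 and 0.24, with vehicle means of 113 and 103 normalized counts. These 3 were among the 5 highest with each compound, and the vehicle libraries behind both comparisons are the same.

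The other members among the 5 highest with either compound were TMEM170A, TMEM219, TMEM261 and TMEM189. TMEM170A, which shapes ER sheets and the nuclear envelope, stood at 0.35 with PF8503, from 80.6 normalized counts with vehicle to 102.7, and at -0.051 with PF846, from 73.8 to 71.2. TMEM219, a receptor of insulin-like growth factor binding protein IGFBP3, stood at 0.28 and -0.0059. TMEM261, now named DMAC1, an assembly factor of the membrane arm of complex I, stood at 0.19 with PF8503 and 0.21 with PF846. TMEM189, now named PEDS1, the desaturase that forms the vinyl ether bond of plasmalogens, was in the PF846 table only, with 50.0 normalized counts with vehicle, 61.9 with PF846 and a log2 ratio of 0.31.

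In the 108 TMEM transcripts with the same region in both tables, the log2 ratio with PF8503 minus that with PF846 ranged from -0.26 to 0.40. The median was 0.047, and the difference was above 0 in 73. Over all 8641 transcripts with the same region the median was 0.013, and the difference was above 0 in 4692. A difference of at least 0.25 in either direction was found in 5 of the 108 (4.63%), against 5.38% of all transcripts. Named after their values were seen, they were TMEM170A (0.40), TMEM115 (0.29), TMEM219 (0.29), TMEM143 (0.29) and, in the opposite direction, TMEM39B (-0.26). None of the 108 reached 0.5, and 36 of all 8641 did. At that share a list of 108 would hold few or none, so this absence is near the background. The compounds were given at the same dose and time, but neither a test nor an interval of these differences can be had from the means.

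The TMEM transcripts were also grouped by known location or role. The lists hold 2 to 12 measured members, so at the background shares given above for a limit of 0.25 most would hold 0 or 1 transcript past it. A list of 12 assembly factors and membrane proteins of mitochondria, which holds neither TMEM261 nor TMEM160, was measured in full. Its median log2 ratio was 0.054 with PF8503 and 0.0031 with PF846, and none of the 12 passed 0.25. TMEM160, at 0.26 with PF8503, is counted below among the transcripts in no list. TMEM70, an assembly factor of ATP synthase, stood at 0.13 and 0.060. TMEM14C, which carries porphyrin precursors in heme synthesis, stood at 0.034 and 0.12. TMEM126A, an assembly factor of complex I, stood at 0.0022 and -0.071.

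The ER proteins of translocation, glycosylation, quality control and calcium were measured in 9 of 12. Their median was 0.043 with PF8503 and 0.035 with PF846, and TMEM38B was the only member past 0.25, with PF8503. TMEM258 stood at 0.13 with PF8503, from 2204 normalized counts to 2403, and at 0.085 with PF846, from 2017 to 2140. TMEM147, a subunit of a translocon-associated complex for multi-pass proteins, stood at 0.16 and 0.064. TMEM33 stood at 0.019 and 0.0063. TMEM214, an ER protein, stood at 0.0057 and -0.052. The channel TMEM38A, the paralog of TMEM38B, was in neither table.

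Among proteins that handle lipids, 8 of 12 were measured with each compound, and their medians were 0.051 with PF8503 and 0.040 with PF846. These medians are not over the same members, since TMEM68 was measured only with PF8503 and TMEM189 only with PF846. TMEM86B passed 0.25 with PF8503 and TMEM189 with PF846. TMEM97, which binds sterols, stood at 0.11 and -0.00017, from a vehicle mean of 2642 normalized counts to 2850 with PF8503 and from 2419 to 2418 with PF846. TMEM30A, the subunit that phospholipid flippases need to leave the ER, stood at 0.019 and 0.081. TMEM41B, a scramblase of the ER, stood at 0.038 and -0.050. TMEM135, of mitochondria and peroxisomes, which is also counted among the mitochondrial proteins, stood at 0.027 and -0.10.

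Proteins of the Golgi and secretory transport, 11 of 13 measured, had medians of 0.053 and 0.016 with PF8503 and PF846, and none passed 0.25. TMEM165, a Golgi manganese and calcium transporter needed for glycosylation, stood at 0.053 and -0.0092, and TMEM131, which helps to recruit collagen for secretion, at -0.047 and 0.051. Lysosomal and endosomal proteins, 8 of 9 measured, had medians of 0.048 and 0.032, and none passed 0.25. TMEM106B, a lysosomal membrane protein, stood at -0.042 and -0.017. TMEM59 stood at 0.00048 and -0.066, and TMEM9, a lysosomal protein, at 0.037 and 0.091.

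Nuclear envelope proteins, 6 of 8 measured, had medians of 0.11 and 0.037, and TMEM170A with PF8503 was the only member past 0.25. TMEM43 (LUMA), of the inner nuclear membrane, stood at 0.097 and 0.045. TMEM120A stood at 0.21 and 0.17, TMEM201 (SAMP1) at 0.053 and 0.029 and TMEM209 at -0.047 and 0.010. Cell surface proteins and ion channels, 7 of 9 measured, had medians of 0.068 and 0.059, and TMEM8B, at 0.27 with PF8503, was the only member past 0.25. TMEM2, a cell surface hyaluronidase now named CEMIP2, stood at 0.039 and -0.038, TMEM63A, a mechanosensitive channel, at 0.047 and 0.010, TMEM123 at 0.035 and -0.082 and TMEM8A at 0.15 and 0.14. Of the 9 proteins of the ciliary transition zone only TMEM138 and TMEM237 were measured. TMEM138 stood at -0.078 and 0.049, and TMEM237 at -0.10 and -0.053. The other 51 TMEM transcripts, in none of these lists, had a median of 0.074 with PF8503, where 1 was lower and 5 were higher by at least 0.25 (1.96% and 9.80%, against 4.23% and 3.79% of all transcripts). With PF846 49 of them had a value, with a median of 0.018 and 1 higher by 0.25 (2.04%, against 1.66% of all transcripts).

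**Figure D3:**
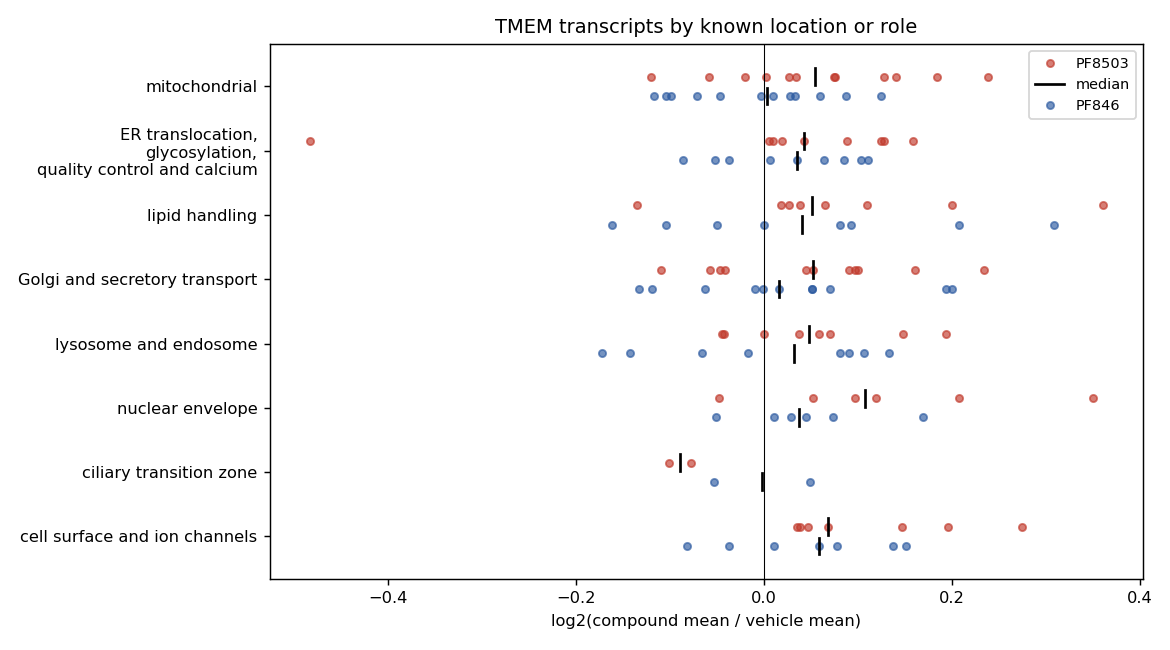
Log2 ratio of compound to vehicle (x axis) for TMEM transcripts grouped by known location or role (y axis), with PF8503 in red and PF846 in blue. Points are transcripts and black bars medians, which lie between -0.090 (ciliary transition zone, 2 transcripts) and 0.11 (nuclear envelope, 6) with PF8503. TMEM38B is the red point farthest to the left, in the ER group, and transcripts in no list are not drawn.

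There were 12 sets of symbols that share a number and differ in a letter, and they held 25 measured transcripts. The largest gap within a set was 0.27 with PF846, between TMEM120A (0.17) and TMEM120B (-0.097), and 0.19 with PF8503, between TMEM167A (0.23) and TMEM167B (0.045). The median gap was 0.13 with PF8503 and 0.090 with PF846. The complex I assembly factors TMEM126A and TMEM126B were 0.061 and 0.029 apart with PF8503 and PF846. TMEM14A, TMEM14B and TMEM14C spanned 0.13 and 0.053. TMEM183A and TMEM185B have close copies elsewhere in the genome and only reads with a single position were kept, so their means may miss shared reads.

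The TMEM symbol is itself given for predicted membrane-spanning stretches, so the shares of proteins with hydrophobic windows below follow from the naming and are given as a description. The canonical coding sequence was found for 112 of the 114 symbols. The encoded proteins had a median of 277 residues, from 72 in TMEM167A to 1883, against 476 over the 9114 transcripts matched. At least 1 hydrophobic window was found in 107 of the 111 with a PF8503 value (96.4%), against 30.7% of all transcripts, and at least 4 in 44 (39.6%), against 6.25%. The first window began within residues 1 to 30 in 44 (39.6%), against 11.0%. The mean hydropathy of residues 2 to 30 had a median of 0.19 among TMEM proteins and -0.37 among all.

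The median log2 ratio was compared between TMEM transcripts by these features, with no test. With a first window in residues 1 to 30 the median log2 ratio was 0.065 with PF8503 and 0.023 with PF846, both over 44 transcripts. With a later first window it was 0.063 over 63 transcripts and 0.025 over 62. Across TMEM transcripts, which share libraries and are not independent, Pearson's r between hydropathy of residues 2 to 30 and the log2 ratio was 0.047 with PF8503 (111 transcripts) and 0.0022 with PF846 (110). Spearman's rho was 0.069 and 0.0075. Between the number of windows and the log2 ratio r was -0.0067 and -0.048. The 30 proteins under 200 residues had a median of 0.080 with PF8503 and 0.068 with PF846. The longer ones had medians of 0.058 over 81 and 0.010 over 80.

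Among all transcripts of the PF8503 table, those with a first window in residues 1 to 30 had a median of 0.037 (993 transcripts), those with a later first window 0.023 (1783) and those with none 0.0057 (6276). In the PF846 table the medians were -0.012 (959), 0.0048 (1721) and 0.0018 (6058). The medians of the TMEM transcripts with a window stood above these in both tables, by an amount that was not tested.

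**Figure D4:**
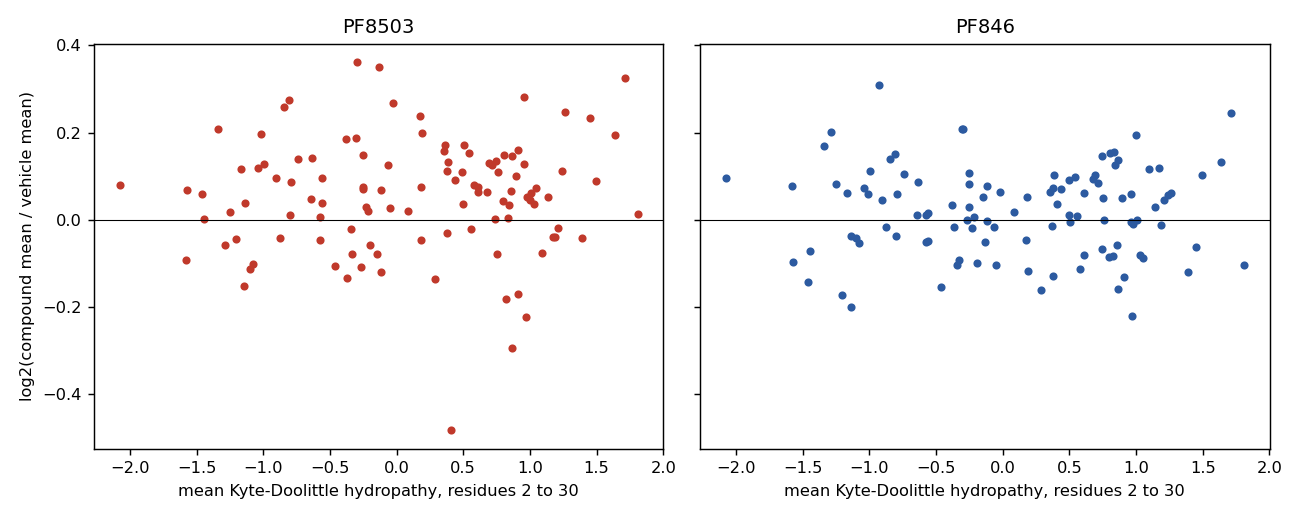
Log2 ratio of compound to vehicle (y axis) against the mean Kyte-Doolittle hydropathy of residues 2 to 30 (x axis) for TMEM transcripts, with PF8503 on the left (111 points) and PF846 on the right (110). Points lie above and below 0 over most of the range (Pearson's r of 0.047 and 0.0022), and the lowest point on the left, TMEM38B, has a hydropathy of 0.41.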

How the data were processed

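The authors removed adapters and ribosomal RNA reads, aligned the rest with Bowtie to canonical coding transcripts (GENCODE version 24, GRCh38), and kept reads with a single position. Counting stopped 10 codons before the end, and a transcript needed over 30 counts. Versions of Bowtie and DESeq are not given in the sources used here. The signal that the authors deposited is a transcript's mean, across the libraries of a condition, after the authors scaled its reads by size factors from DESeq. The deposited columns of fold change, its log2 and p-values hold the authors' own comparisons and were not used.

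The log2 ratio of the authors' means was computed here without a pseudocount. The vehicle column was identified as the one at a constant ratio between the tables. Departures over 0.002 on the log2 scale were read as another counted region. The simulated data on which this step was run held only shortened regions far past that limit, so losses near it were not tested. A limit of 0.5 was used to name differences, and 0.25 as an alternative. Protein features were computed from coding sequences of GENCODE version 44 (GRCh38), so the transcript may differ from the authors' one, and 98.8% of symbols were matched, older ones through RefSeq synonyms.

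Members and lists were chosen with earlier results of these data known. The rule for naming transcripts took, per compound, the 10 lowest and 5 highest, any past 0.5, those with another counted region, the 5 with the highest vehicle mean, up to 4 per list by vehicle mean, and the largest gaps within sets of related symbols. Transcripts named for passing 0.25, for lying outside the range of their class, for their level per length, for their difference between compounds or as further examples of a set were chosen after their values were seen. Python 3.11.15 was used with pandas 2.3.3, numpy 2.4.6, matplotlib 3.10.9 and biopython 1.88.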

Additional observations from a re-analysis of the deposited data

How the results depend on the processing

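The counts of TMEM transcripts past 0.5 on the log2 scale were 0 in both directions with both compounds, and were also 0 after centring on the median of all transcripts, which moved TMEM38B with PF8503 from -0.484 to -0.496, just short of the limit. A pseudocount of 1, a minimum mean of 100 normalized counts, only members in both tables or with the same counted region, and a limit of 1 could give no other count than 0, and say nothing about stability. At a limit of 0.25 they were 2 lower and 8 higher with PF8503 and 0 lower and 2 higher with PF846. The median log2 ratio with PF8503 was 0.066 and became 0.053 after centring, and the other alternatives moved it, and that with PF846, by less than 0.01. No paired analysis was possible because the tables give means over libraries, and for the same reason no library could be left out. The sizes of difference that these data could detect are unknown without the libraries' spread.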
